A study of Mus musculus with 183 samples.

Results

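The steady-state response to 4-hydroxytamoxifen (4OHT) was compared between 2 clones of mouse embryonic stem cells (mESCs), 5F and 7E. The comparison used the 12 mock-treated libraries of the half-life experiment, namely 3 per clone before and 3 per clone after 4 days with 0.1 µM 4OHT, out of 47 libraries of that experiment and 183 samples in the series. The measurement was rRNA-depleted RNA-seq, counted per gene. The quantity of interest was the interaction of clone and day, which is the log2 fold change from day 0 to day 4 in 7E minus the log2 fold change in 5F. The interaction passed the test for 2055 of 17209 genes, and 1512 of them responded in 1 clone alone or in opposite directions in both clones.

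Clone 5F was labelled Rosa26Cre-ERT2/- and carried loxP sites around part of both copies of Skiv2l (Skiv2l fl/fl). Clone 7E was labelled Rosa26Cre-ERT2/BirA-V6, where the study's methods write BirA-V5, and also expressed the biotin ligase BirA, carried 3xFLAG-Avi tags on both copies of Skiv2l and was Aven-/-. The labels of these 7E libraries leave out Skiv2l fl/fl, which other labels of the same clone and the study's methods give. Both clones came from mESCs of a 129 × C57BL/6 background, and CreERT2 was expressed from Rosa26. All groups were cultured on gelatin in serum with LIF and received DMSO for 360 min as the mock treatment, and the day 0 groups received no 4OHT. Each genotype was 1 clone, so that the effects of Aven, BirA, the tags and the clone itself cannot be told apart, and no line with CreERT2 but without loxP sites was analysed here. The 3 libraries of a group were technical replicates, so that p-values measure only the spread between such replicates.

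SKIV2L is the helicase of the Ski complex, which also holds TTC37 and WDR61 and feeds mRNAs into the cytoplasmic exosome for 3′ to 5′ decay. AVEN was first known as an inhibitor of apoptosis and binds RNA, and the study examined it beside the Ski complex. 4OHT sends the CreERT2 recombinase into the nucleus, where it excises the DNA between loxP sites. In the mESC culture used here, naive pluripotent cells coexist with cells that have begun to move towards formative, primitive endoderm or 2-cell-like states.

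Both alleles were built with Cas9, and the 4 target sites are shown because they define what the clones lack. Each is written 5′ to 3′ on the strand of its gene with the 20 targeted bases in lower case and the PAM in capitals, and each occurred 1 time on its chromosome in GRCm38. The Skiv2l sites lie on the minus strand at chr17:34846312-34846331 in intron 10 and at chr17:34844195-34844214 in intron 17 of a transcript with 28 exons, and mark where the loxP sites were placed. The Aven sites lie on the plus strand at chr2:112625181-112625200 in exon 3 and at chr2:112630912-112630931 in exon 6 of a transcript with 6 exons, and mark the ends of the deletion in 7E.
Skiv2l intron 10: gacctgggctaacttaggaaAGG
Skiv2l intron 17: tctccccttaaccttaaatgGGG
Aven exon 3: gctgaggagaaagaatgggaTGG
Aven exon 6: agagtgcctgaagcaaatgcTGG

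The targeted genes differed between the clones before any response was considered. Values are CPM, which are counts divided by the size factor of each library and scaled to the mean library total. Skiv2l (chromosome 17, 34839228 to 34850210) measured 142, 142 and 144 CPM in 5F at day 0 and 152, 131 and 143 CPM in the 5F libraries labelled day 4, so the 5F groups overlapped (log2 fold change -0.01 ± 0.05 SE). In 7E Skiv2l measured 33.2, 35.6 and 31.0 CPM at day 0 and 13.9, 13.4 and 12.6 CPM at day 4, and it fell (-1.32 ± 0.07). The interaction was -1.31 ± 0.09 (adjusted p = 4.39e-10 by edgeR's quasi-likelihood F-test, adjusted after Benjamini and Hochberg over all genes). The counts cover the whole gene and do not separate the exons between the loxP sites. Because Skiv2l did not fall in 5F, those libraries are called "labelled day 4" throughout, and each direction given for 5F rests on that label.

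Aven (chromosome 2, 112492964 to 112634573) measured 34.5, 34.7 and 34.3 CPM in 5F at day 0 and 33.3, 31.9 and 35.1 CPM in the libraries labelled day 4. In 7E Aven measured 1.94, 2.95 and 2.00 CPM at day 0 and 1.57, 1.32 and 2.06 CPM at day 4, all below the lowest 5F library. The Aven interaction was -0.42 ± 0.19 (adjusted p = 0.167). Ttc37 and Wdr61 encode the other Ski subunits. Ttc37 fell in both clones (-0.18 in 5F and -0.27 in 7E) and Wdr61 fell in both (-0.38 and -0.20), with interactions that did not pass (-0.09 and 0.18), although Wdr61 passed with the clones paired within a day (adjusted p = 0.00122, edgeR), a fit described with the counts over all genes. Focad, whose product associates with the Ski complex, rose in 5F (0.21) and measured -0.02 in 7E, and its interaction of -0.23 passed with all libraries but was lost without any of 10 single libraries, with an adjusted p of up to 0.132 (edgeR) without 5F replicate 2 of day 0. Of the 22 tested genes of the Ski complex, its partners and the cytoplasmic exosome, 0 were higher and 3 were lower in 7E in the interaction. The share lower was 13.6%, against 5.29% of all genes. The paired fit gave 2 and 5, and the median was -0.06. Skiv2l shares exonic sequence with Dxo on the opposite strand, Aven with Ryr3, Wdr61 with Dnaja4 and Focad with Hacd4, and the libraries do not keep the strand.

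Gene counts per library ranged from 27401030 to 34114250, and ERCC spike-in counts made up 0.275% to 0.659% of gene and ERCC counts together. The first 2 principal components held 49% and 28.5% of the variance, and no pair of replicates agreed within sampling noise (chi-square per gene at least 2.43). The ratio of gene counts to ERCC counts was 348 ± 14.5 (SD, n = 3) in 5F at day 0, 340.1 ± 15.2 in 5F labelled day 4, 318 ± 5.59 in 7E at day 0 and 153 ± 2.31 in 7E at day 4. The 7E day 4 libraries lay between 151 and 155, and the other 9 libraries lay between 312 and 362. Scaling by the spike-ins therefore moved the median log2 fold change of all genes to -1.10 in 7E, -0.07 in 5F and -1.03 in the interaction, from -0.01, 0.00 and 0.00 with size factors. Since the lysis buffer carried the spike-ins, fewer cells in a well and less RNA per cell cannot be told apart. All changes below are relative to the median gene. Most lists of genes whose direction differs on the spike-in scale are also given there. Where no such value is given, spike-in scaling moves values by about -1.10 in 7E and -1.03 in the interaction. Smaller rises therefore turn negative there. The genes on chromosome 8 had a median log2 difference of 0.54 between 7E and 5F at day 0, against -0.11 to 0.04 on each of the other 19 chromosomes, and a median interaction of -0.01.

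**Figure D1:**
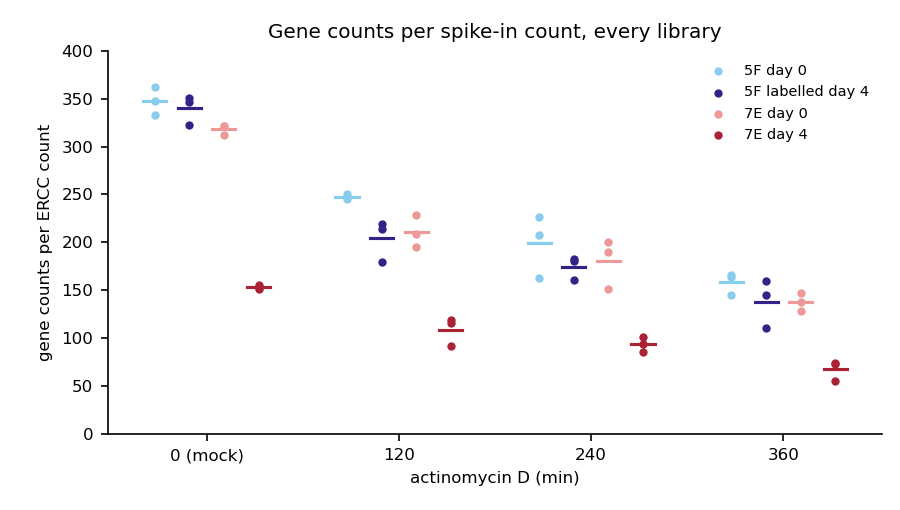
Gene counts per ERCC spike-in count (vertical axis, a ratio) in every library of the half-life experiment, by minutes of actinomycin D (horizontal axis), with 1 colour for each clone and day. The 3 mock libraries of 7E at day 4 sit between 151 and 155, the other mock libraries between 312 and 362, and 7E at day 4 is also the lowest group at 120, 240 and 360 min.

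In 5F, 2045 genes were higher (11.9% of 17209) and 1851 were lower (10.8%) in the libraries labelled day 4. In 7E, 3530 genes rose (20.5%) and 3332 fell (19.4%). The spread of log2 fold changes over all genes was an SD of 0.35 in 5F and 0.55 in 7E, and across genes, which are not independent replicates, the responses of the clones correlated with a Pearson r of 0.55 and a Spearman rho of 0.54. The interaction was higher in 7E for 1145 genes (6.65%) and lower in 7E for 910 genes (5.29%), of which 231 and 99 differed by more than 1 on the log2 scale. A gene was placed in a class only where the interaction itself passed. Opposite responses were found for 88 genes (0.511%), responses in 5F alone for 206 (1.2%) and in 7E alone for 1218 (7.08%). Responses in the same direction but of unequal size were found for 508 genes (2.95%), and for 35 genes (0.203%) the interaction passed with neither response passing. With each library left out, the opposite class held 43 to 108 genes, and it held 56, 46 and 43 without 5F replicate 1 of day 0, 5F replicate 3 of day 0 and 5F replicate 3 labelled day 4. The class of 5F alone held 114 to 318, lowest without 5F replicate 3 labelled day 4 and highest without 7E replicate 3 of day 4. With spike-in scaling 716 genes were opposite.

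Within a day, libraries of the clones with the same replicate number deviated together, so a fit that paired them by number within each day was added after the data had been seen. In this paired fit (edgeR) the interaction was higher in 7E for 2130 genes (12.4%) and lower for 2021 (11.7%), and all 2055 genes called without pairing passed in the same direction. The pairing does not span the days, so the responses of each clone and the classes were not refitted with it. Counts of the paired fit are given below where they differ from the unpaired count by more than 1.5 times, and are to be read against 12.4% and 11.7%. Unpaired counts of the lists are to be read against 6.65% higher and 5.29% lower. Counts that rose and fell are to be read against 11.9% and 10.8% in 5F and 20.5% and 19.4% in 7E.

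The class with responses in 7E alone was the largest. It held 676 genes that were higher in 7E (median log2 fold change 0.55 in 7E and 0.02 in 5F) and 542 that were lower (-0.46 and 0.00). These medians are relative to the median gene, which lay at -1.10 in 7E with spike-in scaling. Among the genes that moved in the same direction, 337 rose in both clones and more in 7E (medians 0.37 in 5F and 1.08 in 7E) and 136 fell in both and more in 7E (-0.29 and -0.72). The reverse, a rise in both clones that was larger in 5F, held for 34 genes (0.74 in 5F and 0.33 in 7E). The protein-coding genes that were lower in 7E in the opposite and 5F alone classes had median exonic lengths of 6738 and 6869 bases. The median was 4426 over all protein-coding genes tested, and the protein-coding genes of these classes that were higher had 4275 and 3838. In the plot of both responses the called genes lie off the diagonal by their selection. Of the 2055 called genes 1218 are in the class of 7E alone.

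**Figure D2:**
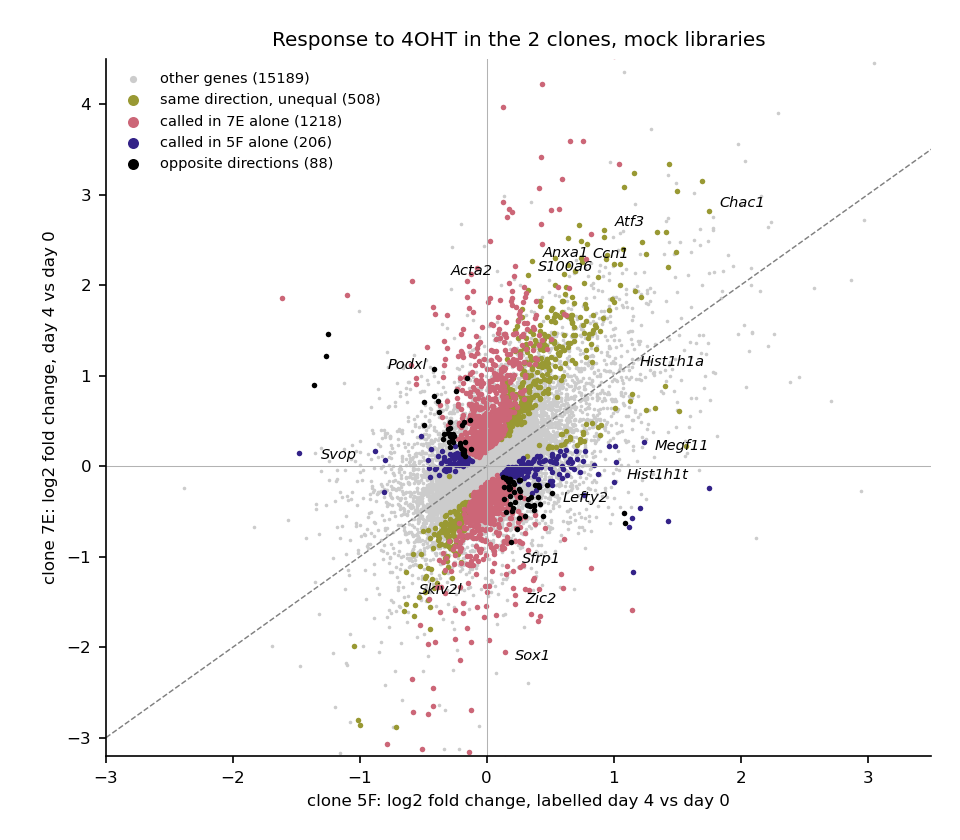
Log2 fold change of each gene in 5F (horizontal axis, labelled day 4 against day 0) and in 7E (vertical axis, day 4 against day 0), relative to the median gene, with colours for the classes and 15 of 17209 genes outside the axes. The 1218 genes called in 7E alone spread along the vertical axis, the 206 called in 5F alone along the horizontal axis and the 88 opposite genes lie in the upper left and lower right. With spike-in scaling the median gene would move down by 1.10 in 7E.

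Genes that fell in 5F labelled day 4 and rose in 7E numbered 39. Pth1r, the receptor for parathyroid hormone, Podxl, a cell surface sialomucin, and Slc40a1, the iron exporter ferroportin, were among the 6 with the largest interaction. Podxl (chromosome 6, 31519488 to 31563981) measured 89.8, 87.2 and 92.4 CPM in 5F at day 0 and 83.6, 82.1 and 76.0 CPM labelled day 4. In 7E Podxl measured 35.8, 36.9 and 40.0 CPM at day 0 and 73.5, 74.3 and 74.4 CPM at day 4. The groups did not overlap in either clone, and the interaction was 1.14 ± 0.07 (adjusted p = 3.72e-10, edgeR). Slc40a1 (chromosome 1, 45908068 to 45926523) measured 12.8, 12.1 and 12.3 CPM in 5F at day 0 and 10.3, 11.1 and 10.1 CPM labelled day 4. In 7E Slc40a1 measured 11.7, 12.1 and 12.0 CPM at day 0 and 21.4, 21.6 and 20.8 CPM at day 4. The clones thus began at similar levels and moved apart, with an interaction of 1.08 ± 0.10 (adjusted p = 5.54e-08).

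Pth1r fell by 0.49 in 5F and rose by 0.71 in 7E (interaction 1.20 ± 0.15), and it shares exonic sequence with Myl3. Nxf7, a member of the nuclear RNA export factor family, fell by 0.42 and rose by 0.78, with 1.23 to 1.40 CPM at day 0 and 2.15 to 2.37 CPM at day 4 in 7E. Snai3, a Snail family transcription factor, fell by 0.38 and rose by 0.72. Ltb4r2, a leukotriene B4 receptor, fell by 0.38 and rose by 0.60. On the spike-in scale all 6 had negative log2 fold changes in 7E (-0.50 to -0.12), and the interaction stayed above 0 for 5 of them and was -0.05 for Ltb4r2.

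Genes that rose in 5F labelled day 4 and fell in 7E numbered 49. They include Sfrp1, a secreted Wnt inhibitor, Dact3, an inhibitor of Wnt signalling that acts on Dishevelled, and Tbx3, a transcription factor of naive pluripotency. Sfrp1 (chromosome 8, 23411502 to 23449632) measured 90.8, 92.2 and 89.6 CPM in 5F at day 0 and 100.1, 102 and 109.8 CPM labelled day 4. In 7E Sfrp1 measured 156, 152 and 158 CPM at day 0 and 81.8, 85.3 and 93.5 CPM at day 4. It was thus higher in 7E than in 5F at day 0 and lower than in 5F at day 4, and the interaction was -1.03 ± 0.07 (adjusted p = 7.11e-10). Genes on chromosome 8, where Sfrp1 lies, had a median log2 difference of 0.54 between 7E and 5F at day 0. Tbx3 (chromosome 5, 119670669 to 119684724) measured 35.9, 36.4 and 36.8 CPM in 5F at day 0 and 44.6, 43.5 and 46.3 CPM labelled day 4. In 7E Tbx3 measured 40.0, 46.2 and 45.8 CPM at day 0 and 29.8, 30.7 and 29.9 CPM at day 4, with no overlap between days in either clone and an interaction of -0.85 ± 0.08.

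Dact3 rose by 0.44 in 5F and fell by 0.55 in 7E. Jam2, a junctional adhesion molecule, rose by 0.24 and fell by 0.69, from 74.5 to 80.9 CPM at day 0 to 47.2 to 48.5 CPM at day 4 in 7E. Tns1, the focal adhesion protein tensin 1, rose by 0.42 and fell by 0.42. Their interactions ranged from -0.99 to -0.84 and passed with each of the 12 libraries left out. With spike-in scaling these 3 genes, Sfrp1 and Tbx3 had interactions between -2.06 and -1.86, against a median of -1.03 over all genes. That shift leaves negative values negative by construction.

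The list with the largest share of genes higher in 7E was that of S100 proteins, annexins, galectins and related cytoskeletal genes. These encode calcium-binding, membrane-binding and filament proteins. Of 26 tested members, 22 were higher in 7E in the interaction and 0 lower (84.6%, against 6.65% of all genes). This and the other lists were chosen with earlier results of these data known. Their shares may in part be set by that choice. In 7E 24 rose and 0 fell, with a median of 0.86, and in 5F 10 rose and 1 fell, with a median of 0.13. On the spike-in scale the median in 7E was -0.24 and the median interaction was -0.25, so that the direction for the list holds only relative to the median gene. Summed over the list, the CPM were 2832 to 2850 in 5F at day 0, 3358 to 3580 labelled day 4, 2421 to 2514 in 7E at day 0 and 4380 to 4650 at day 4.

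Anxa1, which encodes annexin A1 (chromosome 19, 20373428 to 20390944), measured 14.8, 12.0 and 15.5 CPM in 5F at day 0 and 18.9, 19.0 and 16.2 CPM labelled day 4. In 7E Anxa1 measured 4.64, 3.89 and 4.10 CPM at day 0 and 21.9, 19.8 and 19.05 CPM at day 4. The 7E libraries at day 0 were thus the lowest and those at day 4 the highest, and the interaction was 1.90 ± 0.14, or 0.87 on the spike-in scale. S100a6, a calcium-binding protein (chromosome 3, 90612882 to 90624181), measured 32.4, 30.1 and 34.9 CPM in 5F at day 0 and 41.5, 43.2 and 36.7 CPM labelled day 4. In 7E S100a6 measured 55.0, 52.4 and 52.3 CPM at day 0 and 241, 229 and 219 CPM at day 4, so all 7E day 4 libraries were above every other library (interaction 1.79 ± 0.09, adjusted p = 6.80e-12). Tagln, an actin-binding protein of smooth muscle that shares exonic sequence with Pcsk7, had an interaction of 1.42, and Anxa2 had 1.37.

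The 6 named genes with the largest interactions among those higher in 7E and responding there alone were AA986860, Acta2, Htra1, Tinagl1, Fam198b and Krt7. Acta2, the smooth muscle actin (chromosome 19, 34241090 to 34255590), measured 3.80, 3.64 and 3.51 CPM in 5F at day 0 and 4.75, 3.77 and 3.81 CPM labelled day 4. In 7E Acta2 measured 1.23, 1.38 and 1.65 CPM at day 0 and 5.34, 5.90 and 6.00 CPM at day 4. The 5F groups overlapped and the 7E groups did not, and the interaction was 1.85 ± 0.20 (adjusted p = 5.54e-07). Htra1, a secreted serine protease, measured 22.2, 22.4 and 23.6 CPM in 7E at day 0 and 58.7, 56.7 and 55.6 CPM at day 4, against means of 55.2 ± 2.97 CPM in 5F at day 0 and 50.2 ± 1.69 CPM labelled day 4. The day 4 level in 7E was therefore near that of 5F. Tinagl1, a basement membrane protein (interaction 1.45), Fam198b (1.44), the epithelial keratin Krt7 (1.43) and AA986860 (2.04) were the others. AA986860 overlaps Gm28857, Fam198b overlaps Gm36569 and Krt7 overlaps Gm671 on the opposite strand. Of the 6 genes, 5 were lower in 7E than in 5F by more than 1 on the log2 scale at day 0 (-1.80 to -1.28), the exception being Krt7 (-0.22). The day 0 libraries enter this difference and the interaction with opposite signs, so part of the pattern is built in. Across all genes tested the 2 values had a Pearson r of -0.40. All 6 genes kept an interaction above 0 on the spike-in scale (0.41 to 1.01).

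**Figure D3:**
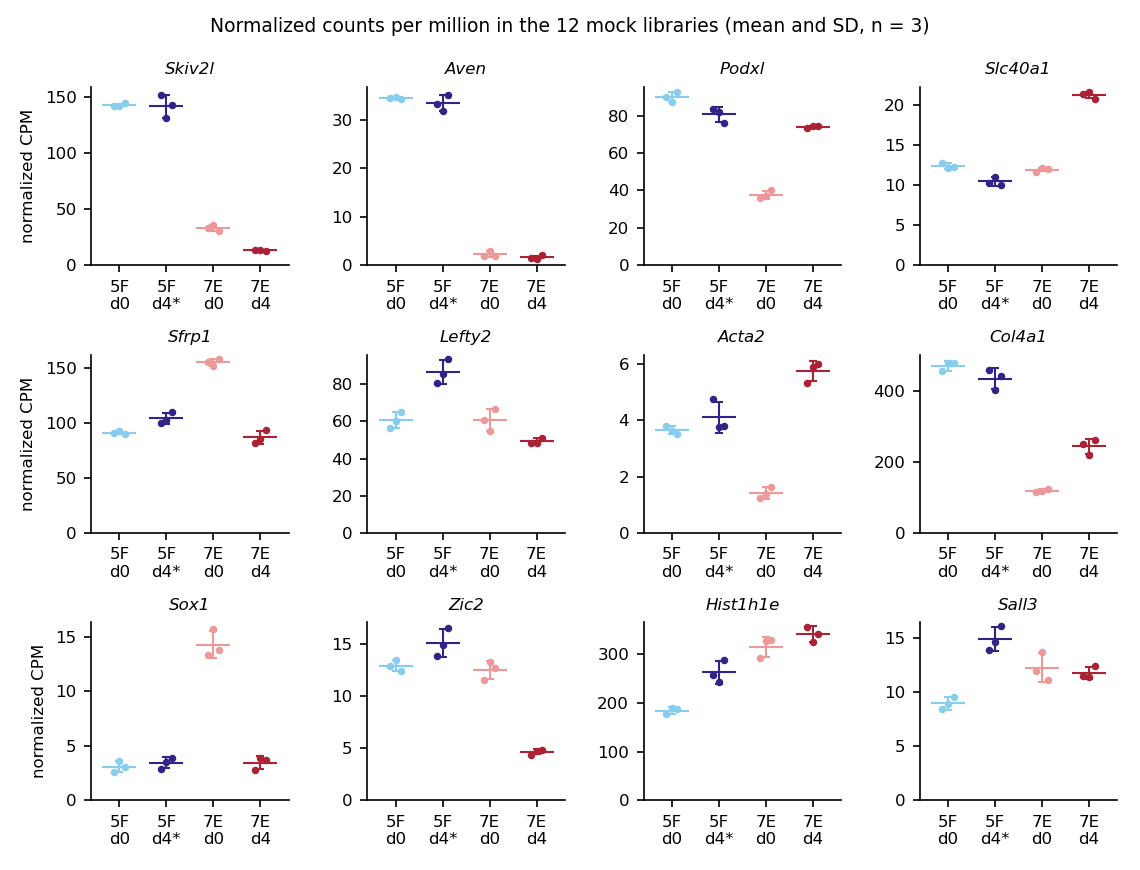
Normalized CPM (vertical axis) of 12 genes in each of the 12 mock libraries by clone and day (d0 and d4, where d4* marks 5F libraries labelled day 4), with the mean and SD of n = 3. Podxl and Slc40a1 fell in 5F and rose in 7E, Sfrp1 and Lefty2 rose in 5F and fell in 7E, Acta2 and Col4a1 rose in 7E alone, Sox1 and Zic2 fell in 7E alone, and Hist1h1e and Sall3 rose in 5F alone, all relative to the median gene. With spike-in scaling Podxl, Slc40a1 and Col4a1 measured -0.12, -0.27 and -0.06 in 7E.

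YAP is a coactivator that binds TEAD factors when cells are spread or under tension. Of 18 tested YAP target genes, 9 were higher in 7E in the interaction and 2 lower. These shares were 50.0% and 11.1%, against 6.65% and 5.29% of all genes. Ccn1, a matricellular protein and classical YAP target (chromosome 3, 145646976 to 145649981), measured 39.9, 39.1 and 40.6 CPM in 5F at day 0 and 67.6, 68.8 and 65.1 CPM labelled day 4. In 7E Ccn1 measured 33.6, 33.8 and 28.1 CPM at day 0 and 160.3, 149.7 and 147 CPM at day 4. It rose in both clones without overlap, and by more in 7E (interaction 1.50 ± 0.08, adjusted p = 5.19e-11). Ccn2, a related matricellular protein, rose by 0.42 in 5F and 1.49 in 7E, Amotl2, an angiomotin family protein that binds YAP, rose by 0.39 and 1.17, and its relative Amotl1 rose by 0.49 in 7E alone. The median of the list was 0.18 in 5F and 0.40 in 7E, and -0.70 in 7E on the spike-in scale, where the interaction of Amotl2 and Amotl1 also turned negative.

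Immediate early genes are transcribed within minutes of a stimulus. Of 20 tested members, 6 were higher in 7E (30.0%, against 6.65% of all genes) and 0 lower, or 10 and 3 in the paired fit. Their median went from 0.18 in 5F to 0.36 in 7E (-0.73 with spike-ins). Fosl2, an AP-1 subunit, measured 3.14, 3.25 and 2.80 CPM in 7E at day 0 and 8.45, 9.01 and 8.85 CPM at day 4, against 5.01 to 5.68 CPM and 5.15 to 6.33 CPM in 5F. It responded in 7E alone (interaction 1.42 ± 0.15). The interaction was 1.04 for Klf6, 0.97 for the MAP kinase phosphatase Dusp1 and 0.72 for Jun, which were 0.01, -0.06 and -0.31 on the spike-in scale. Jun shares exonic sequence with Junos and Dusp1 with Ergic1.

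The integrated stress response is set off by kinases that phosphorylate eIF2, which lowers general translation and raises that of ATF4, a transcription factor for amino acid supply and stress genes. This was the list with the most genes higher in 7E, 26 of 38 (68.4%, against 6.65% of all genes), with 1 lower. In both clones most members rose, 26 in 5F and 33 in 7E, and 4 fell in each. The median was 0.39 in 5F and 0.77 in 7E. On the spike-in scale the median in 7E was -0.32 and the median interaction -0.62, so the direction of the list holds relative to the median gene only. Atf4 itself (chromosome 15, 80255184 to 80257541) measured 125, 123 and 124 CPM in 5F at day 0 and 217, 223 and 216 CPM labelled day 4. In 7E Atf4 measured 165, 160.2 and 167 CPM at day 0 and 441, 427 and 384 CPM at day 4, and the interaction was 0.53 ± 0.07 (adjusted p = 4.59e-06), or -0.50 with spike-ins.

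Atf3, a stress-induced transcription factor (chromosome 1, 191170296 to 191218039), measured 6.08, 6.52 and 6.07 CPM in 5F at day 0 and 12.6, 11.6 and 11.4 CPM labelled day 4. In 7E Atf3 measured 3.07, 3.76 and 3.68 CPM at day 0 and 23.6, 20.9 and 19.6 CPM at day 4, so it started lower and ended higher than in 5F (interaction 1.69 ± 0.14, adjusted p = 1.09e-08). Chac1, which degrades glutathione, rose by 1.75 in 5F and 2.82 in 7E, the secreted glycoprotein Stc2 by 0.69 and 1.80, and the lipoprotein receptor Vldlr by 1.42 and 2.59. Ifrd1, whose mRNA carries an upstream reading frame, rose in both clones (1.00 and 1.14), with an interaction of 0.13 ± 0.08 that did not pass (adjusted p = 0.31, or 0.0155 in the paired fit, edgeR). Cytosolic tRNA synthetases were taken as a list without regard to whether ATF4 regulates them. Of 20, 6 were higher in 7E (30.0%, against 6.65% of all genes) and 0 lower, or 10 and 1 in the paired fit. Their effects were small: 0.36 for Nars, 0.35 for Sars, 0.27 for Aars and 0.23 for Cars, each negative on the spike-in scale (-0.80 to -0.67). Aars shares exonic sequence with Exosc6.

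Promoter sequences are shown for genes of the ATF4, endoplasmic reticulum, YAP and cytoskeletal lists that were higher in 7E. In RefSeq promoters of GRCm38.p6, from 250 bases before to 50 after the start, the ATF4 element TGATGCAA was searched on both strands and found in 6 of 33 promoters of the ATF4 list that matched by symbol (18.18%) and in 0.93% of 27025 promoters. The TEAD element GGAATG, on both strands, was found in 8 of 12 promoters of the YAP list (66.67%) and in 14.63% of all promoters. The CArG box, bound by SRF, was found in 2 of 20 promoters of the S100 and cytoskeletal list (10.0%) and in 1.57% of all. Among the list members that were higher in 7E, 4 of 22 held the ATF4 element (18.18%), 4 of 7 the TEAD element (57.14%) and 2 of 17 the CArG box (11.76%). Over the promoters of 875 genes higher in 7E the shares were 1.83%, 13.14% and 2.4%, against 0.57%, 12.04% and 1.28% of 11527 genes tested. List members that were not called higher, such as Slc7a11, Pycr1, Axl, Crim1 and Ankrd1, held matches too. Herpud1 belongs to the endoplasmic reticulum genes described next, and Myl9, a myosin light chain, to the cytoskeletal list. Each window is given on the strand of its gene with the motif, or its reverse complement, in capitals. A match describes letters only, and no binding was measured.
Atf3, chr1:191183426-191183453: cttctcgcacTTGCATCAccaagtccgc
Chac1, chr2:119351039-119351066: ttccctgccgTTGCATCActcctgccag
Herpud1, chr8:94386307-94386334: ccacggcgggTTGCATCAgcccgcaccc
Ccn1, chr3:145650072-145650099: gcgccaaccaaCATTCCtgagatgtttg
Amotl2, chr9:102717728-102717755: tgaaactctcaCATTCCtggcatagcag
Myl9, chr2:156775294-156775321: aagcagaggCCTAATAAGGccgggctgg

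The endoplasmic reticulum chaperones and unfolded protein response genes are the folding machinery of the secretory pathway. Of 26 tested, 7 were higher in 7E (26.9%, against 6.65% of all genes) and 0 lower. The paired fit gave 13 and 1. Only 4 were higher without 5F replicate 1 or 3 of day 0, 5F replicate 3 labelled day 4 or 7E replicate 2 of day 0. In 5F 13 fell and in 7E 8, and the medians were -0.12 and 0.01. With spike-in scaling 0 were higher and 26 lower in the interaction, with a median of -0.88. Calr and Pdia4, luminal proteins that help glycoproteins fold, had interactions of 0.05 ± 0.06 and 0.18 ± 0.06, which did not pass, although Pdia4 passed in the paired fit (adjusted p = 0.000189, edgeR). Herpud1, a membrane protein of ER-associated degradation whose promoter window was printed with those of the ATF4 list, measured 13.9 to 15.6 CPM in 5F at day 0 and 17.2 to 20.0 CPM labelled day 4, and 17.6 to 19.0 CPM in 7E at day 0 and 35.6 to 42.2 CPM at day 4. Its interaction was 0.71 ± 0.11, and those of Dnajb11, Atf6 and P4hb were 0.28, 0.27 and 0.26. All 4 turned negative on the spike-in scale.

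p53 is a transcription factor that arrests the cycle or starts apoptosis after damage. Of 30 tested p53 target genes, 13 were higher in 7E (43.3%, against 6.65% of all genes) and 1 lower. In 7E 16 rose and 4 fell, and in 5F 6 rose and 5 fell, with medians of 0.15 and -0.04. Perp, a desmosomal and apoptosis-related membrane protein (chromosome 10, 18845020 to 18857073), measured 59.8, 55.3 and 54.3 CPM in 5F at day 0 and 62.9, 62.9 and 57.4 CPM labelled day 4. In 7E Perp measured 82.9, 78.7 and 79.1 CPM at day 0 and 159.6, 164 and 152 CPM at day 4. The 5F groups overlapped and the 7E groups did not (interaction 0.87 ± 0.07, adjusted p = 1.29e-08). Cdkn1a, the cell cycle inhibitor p21, measured 11.2, 14.2 and 11.4 CPM in 7E at day 0 and 29.4, 29.0 and 31.4 CPM at day 4, against 7.98 to 10.2 CPM and 11.3 to 15.5 CPM in 5F (interaction 0.84). The kinase Plk2 had 0.76 and Mdm2, the ubiquitin ligase of p53, had 0.58. With spike-in scaling these 4 interactions were -0.46 to -0.16 and the median of the list in 7E was -0.95.

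Markers of other cell types that the cultures could hold moved unevenly. Of 20 tested primitive endoderm markers, 9 were higher in 7E and 2 lower (45.0% and 10.0%, against 6.65% and 5.29% of all genes). Col4a1, a chain of type IV collagen (chromosome 8, 11198423 to 11312826), measured 456, 479.6 and 479 CPM in 5F at day 0 and 461, 402 and 444 CPM labelled day 4. In 7E Col4a1 measured 116, 117 and 123 CPM at day 0 and 250.2, 221 and 262 CPM at day 4, which stayed below 5F (interaction 1.15 ± 0.08). Col4a2, which shares exonic sequence with Col4a1, had 1.05, the collagen chaperone Serpinh1 0.91 and the endoderm factor Foxa2 0.88. The 2 markers that were lower were Cubn (-0.39) and Nid1 (-0.27). Cubn measured -0.58 in 5F and -0.97 in 7E. Of the other endoderm factors, Sox7 passed with an interaction of 0.63 (adjusted p = 0.0229, edgeR), whereas Hnf4a (1.06), Gata6 (0.34) and Sox17 (0.03) did not. Gata4 measured 35.2 CPM in 5F and 3.20 CPM in 7E at day 0 and 30.1 and 3.52 CPM at day 4, and its interaction of 0.37 passed in the paired fit (adjusted p = 0.0383, edgeR, against 0.107). These 5 endoderm factors, Cubn and Nid1 were singled out after their values were seen. The summed CPM of the list were 4324 to 4546 in 5F at day 0, 4696 to 5071 labelled day 4, 2119 to 2292 in 7E at day 0 and 2846 to 3293 at day 4. On the spike-in scale the median of the list was -0.83 in 7E.

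Of 9 tested trophectoderm markers, 5 were higher in 7E (55.6%, against 6.65% of all genes) and 0 lower. The 5 were Krt7 (1.43), Gata2 (0.53), Tfap2c (0.30) and, named after their values were seen, Ascl2 (1.55) and Gata3 (1.56). Without single libraries Gata2 reached an adjusted p of 0.103 (edgeR, without 7E replicate 2 of day 0). The defining factors Cdx2 and Eomes had adjusted p-values of 0.102 and 0.311 (edgeR), and Elf5 had at most 3 counts in any library. The summed CPM of the list rose from 89.2 to 92.9 at day 0 to 138 to 142 at day 4 in 7E, and measured 61.3 to 61.8 and 64.3 to 74.7 in 5F. With spike-in scaling the median of the list was -0.31 in 7E and -0.10 in the interaction, with 0 genes higher and 4 lower, so the direction holds only relative to the median gene. Of 5 tested mesoderm markers 1 was higher and 0 lower, and of 6 tested fibroblast markers 1 was higher and 0 lower, with 2 higher of each in the paired fit. With spike-in scaling 0 were higher and 3 lower in each of these lists. Fap had 0 counts in all 12 libraries, which allows up to 3 counts over them. Neuroectoderm markers were split, with 2 higher and 1 lower of 5 tested, and spike-in scaling gave 0 higher and 5 lower. The part of these cell types in the other results was not tested.

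Germline genes that are silenced by DNA methylation and imprinted genes moved with the group that was higher in 7E. Of 22 tested germline genes 10 were higher in 7E (45.5%, against 6.65% of all genes) and 0 lower. The medians were 0.31 in 5F and 0.65 in 7E. Rhox6, a homeobox gene of the X chromosome (chromosome X, 37826910 to 37829857), measured 5.35, 4.53 and 5.01 CPM in 7E at day 0 and 14.3, 12.5 and 13.5 CPM at day 4, against 6.41 to 7.67 CPM and 7.51 to 9.68 CPM in 5F. The germ cell RNA-binding protein Dazl had an interaction of 0.70, the TFIID subunit relative Taf7l 1.14 and Rhox9 0.83. Of 27 tested imprinted genes 9 were higher (33.3%, against 6.65% of all genes) and 1 lower, with medians of 0.14 and 0.30. Peg10, a retrotransposon-derived gene (chromosome 6, 4747306 to 4760517), measured 335, 348 and 332 CPM in 5F at day 0 and 434, 467 and 458 CPM labelled day 4. In 7E Peg10 measured 147, 138 and 140.3 CPM at day 0 and 342, 351 and 376 CPM at day 4, so its level in 7E at day 4 was near that of 5F at day 0. Its neighbour Sgce had an interaction of 1.21, Sfmbt2 1.01 and the cell cycle inhibitor Cdkn1c 0.52. With spike-in scaling both lists had negative median interactions, -0.57 and -0.90.

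Pluripotency genes were among those lower in 7E. Of 27 tested naive and general pluripotency regulators, 11 were lower in 7E in the interaction and 0 higher (40.7%, against 5.29% of all genes), or 18 and 0 in the paired fit. In 7E 17 fell and 2 rose, whereas in 5F 7 fell and 7 rose, and the medians were -0.20 and -0.04. The core factors Pou5f1, Nanog and Sox2, chosen after their values were seen, had interactions of -0.07, -0.12 and -0.15 that did not pass, although Nanog and Sox2 did in the paired fit (adjusted p = 0.00586 and 0.00162, edgeR). Mean Pou5f1 was 951 CPM at day 0 and 869.5 CPM labelled day 4 in 5F, and 828 and 721 CPM in 7E. Prdm14, a regulator of the naive state (chromosome 1, 13113457 to 13127163), measured 20.0, 18.6 and 18.6 CPM in 5F at day 0 and 20.2, 19.4 and 21.3 CPM labelled day 4. In 7E Prdm14 measured 36.2, 37.6 and 37.4 CPM at day 0 and 20.8, 22.9 and 22.0 CPM at day 4, so that the clones differed at day 0 and came close at day 4 (interaction -0.85 ± 0.09, adjusted p = 3.42e-07). The homeobox gene Gbx2 fell by 0.34 in 5F and 1.16 in 7E, and the growth factor Fgf4 by 0.26 and 0.93. On the spike-in scale the median interaction of the list was -1.23, against -1.03 over all genes. Spike-in scaling lowers the interaction of all genes, so negative values stay negative there by construction.

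Among formative and primed state genes, which mark the step after naive pluripotency, 10 of 21 tested were also lower in 7E and 2 higher. These shares were 47.6% and 9.52%, against 5.29% and 6.65% of all genes. Zic2, a zinc finger transcription factor (chromosome 14, 122475435 to 122479852), measured 12.9, 13.5 and 12.4 CPM in 5F at day 0 and 13.9, 14.9 and 16.5 CPM labelled day 4. In 7E Zic2 measured 11.6, 13.3 and 12.7 CPM at day 0 and 4.40, 4.75 and 4.85 CPM at day 4, which lay below all other libraries (interaction -1.64 ± 0.12, adjusted p = 3.14e-09). Its neighbour Zic5 fell in 7E (-1.19) and measured 0.16 in 5F, which did not pass. Fgf15 measured 27.5, 26.8 and 28.2 CPM in 7E at day 0 and 7.15, 7.40 and 9.11 CPM at day 4, and 32.9 to 35.9 CPM and 24.2 to 25.8 CPM in 5F (interaction -1.35). Cdh2, N-cadherin, went the other way (0.45), but its adjusted p reached 0.128 without 5F replicate 1 of day 0.

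Sox1, a transcription factor of the neural lineage (chromosome 8, 12395295 to 12400126), had the largest negative interaction among the named genes. It measured 2.62, 3.61 and 3.05 CPM in 5F at day 0 and 2.91, 3.52 and 3.91 CPM labelled day 4. In 7E Sox1 measured 13.3, 15.7 and 13.8 CPM at day 0 and 2.76, 3.86 and 3.70 CPM at day 4. The 7E libraries at day 0 alone stood out, and the interaction was -2.19 ± 0.20 (adjusted p = 5.93e-08). Sox1 also lies on chromosome 8, whose genes had a median log2 difference of 0.54 between 7E and 5F at day 0. Fgf1, a fibroblast growth factor (-1.64), and Msi1, a neural RNA-binding protein (-1.38), were likewise higher in 7E than in 5F at day 0 (by 2.66 and 1.28) and fell in 7E alone. For Sox1, Fgf1 and Msi1, too, the day 0 libraries enter both the day 0 difference and the interaction. Ccdc107 fell in 7E alone as well (-1.53 ± 0.25), from 34.5 to 50.5 CPM to 9.56 to 11.4 CPM, but it overlaps the non-coding RNA gene Rmrp on the opposite strand, and reads from either cannot be told apart.

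Nodal is a TGF-β family ligand that the Lefty proteins inhibit and that these cells use in an autocrine loop. Of 18 tested genes of the pathway 6 were lower in 7E (33.3%, against 5.29% of all genes) and 0 higher, or 7 and 3 in the paired fit. Only 3 were lower without 5F replicate 1 or 3 of day 0 or without 7E replicate 1 or 2 of day 4. The antagonist Lefty2 (chromosome 1, 180893108 to 180899103) measured 56.6, 60.1 and 65.1 CPM in 5F at day 0 and 80.7, 85.5 and 93.8 CPM labelled day 4. In 7E Lefty2 measured 60.6, 54.9 and 66.7 CPM at day 0 and 48.3, 48.6 and 51.3 CPM at day 4. It rose in 5F and fell in 7E (interaction -0.81 ± 0.10, adjusted p = 2.12e-06). Lefty1 measured 137 to 152 CPM and 198 to 248 CPM in 5F, where it rose, and 121 to 142 CPM and 118 to 126 CPM in 7E, where the days overlapped (interaction -0.65). The receptors Acvr1b and Acvr2b had interactions of -0.34 and -0.34, and Acvr2b lost its call without single libraries (adjusted p up to 0.0686, without 5F replicate 3 of day 0). The median of the list was 0.07 in 5F and -0.06 in 7E.

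Replication-dependent histone genes rose more in 5F labelled day 4 than in 7E. Their mRNAs end in a stem-loop without a poly(A) tail, are made in S phase and are targets of 3′ to 5′ decay. Of 59 tested genes 55 rose in 5F and 34 in 7E and 0 fell in either, 28 were lower in 7E in the interaction and 0 higher (48 and 0 in the paired fit), and the fold change was larger in 5F for 56. The medians were 0.69 in 5F and 0.28 in 7E, or 0.62 and -0.81 on the spike-in scale, so that in 7E the direction depends on the scaling. Summed over the 59 genes, the CPM were 4398, 4762 and 4395 in 5F at day 0 and 7773, 7300 and 8611 labelled day 4. In 7E they were 6051, 6923 and 6588 at day 0 and 10073, 8946 and 9431 at day 4. In CPM the 7E libraries thus held more histone reads at both days. Gene counts per ERCC count were 153 in 7E at day 4 and 340.1 in 5F labelled day 4, so the order at day 4 depends on the scaling. Reads that map to several near-identical copies were not counted, so the values of single histone genes are uncertain.

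By type, the interaction was lower in 7E for 5 of 6 linker histone H1 genes, 8 of 14 H2A, 8 of 16 H2B, 3 of 11 H3 and 4 of 12 H4 genes, and higher for 0. These shares were 83.3%, 57.1%, 50.0%, 27.3% and 33.3%, against 5.29% of all genes. The 5 H1 genes include Hist1h1t, the testis linker histone. In the paired fit the H3 and H4 counts were 9 and 10, with 0 higher. With each library left out the counts were 5 for H1, 4 to 9 for H2A, 4 to 11 for H2B, 1 to 5 for H3 and 1 to 6 for H4, and both H2A and H2B were at 4 without 5F replicate 3 of day 0. Hist1h1e (chromosome 13, 23620629 to 23622558), an H1 gene, measured 177, 189 and 186 CPM in 5F at day 0 and 258, 242 and 288 CPM labelled day 4. In 7E Hist1h1e measured 291, 326 and 328 CPM at day 0 and 356, 324 and 341 CPM at day 4, where it did not pass (interaction -0.40 ± 0.08, adjusted p = 0.00153). Hist1h1a, another H1 gene, rose in both clones (1.12 and 1.06) with an interaction of -0.06 ± 0.06. Hist1h1d and Hist1h1c rose by 1.13 and 0.88 in 5F and by 0.72 and 0.43 in 7E. Among the H2A and H2B genes with the largest differences, Hist1h2ak had -0.68, Hist1h2ac -0.51, Hist1h2ae -0.53, Hist1h2bc -0.63, Hist1h2bl -0.54, Hist1h2bk -0.48 and Hist1h2bf -0.48. The H3 and H4 genes lay between -0.58 for Hist1h4b and -0.23 for Hist1h3b, with Hist1h4k at -0.45, Hist1h3i at -0.41, Hist1h4d at -0.38, Hist4h4 at -0.37 and Hist1h3d at -0.35. For 8 of these named histone genes the call was lost without at least 1 library. The replacement histone genes, which were listed as genes with polyadenylated mRNAs, had medians of 0.06 and -0.15. In the interaction 3 of 11, H2afx among them, were lower in 7E (27.3%, against 5.29% of all genes) and 0 higher, or 4 and 1 in the paired fit. The forms of the H2afx mRNA were not told apart. Of 15 histone mRNA processing and turnover factors 0 passed in either direction, or 2 higher and 1 lower in the paired fit.

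Other genes that rose in 5F alone were of varied kinds. Sall3, a transcription factor, measured 8.43, 8.87 and 9.54 CPM in 5F at day 0 and 13.9, 14.6 and 16.1 CPM labelled day 4, and 11.1 to 13.7 CPM and 11.4 to 12.4 CPM in 7E. Only the 5F groups were apart (interaction -0.79 ± 0.12, adjusted p = 1.02e-04). Hist1h1t, the testis linker histone, had -0.97, Megf11, a transmembrane protein with EGF-like domains, -0.97, Frem1, a basement membrane protein, -0.84, Hist1h2af -0.79 and the matrix protein Tgfbi -0.73. Their interactions were also negative on the spike-in scale, which follows from the shift of the median gene to -1.03 there.

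Genes that fell in 5F alone were fewer, 76, with a median log2 fold change of -0.24 in 5F and 0.07 in 7E. Dab2, an endocytic adaptor that also marks primitive endoderm (chromosome 15, 6299788 to 6440712), measured 33.2, 34.1 and 37.8 CPM in 5F at day 0 and 19.8, 21.2 and 19.0 CPM labelled day 4. In 7E Dab2 measured 4.33, 4.33 and 4.27 CPM at day 0 and 3.14, 3.93 and 3.57 CPM at day 4. The fall in 5F was -0.81 ± 0.07 and the interaction 0.53 ± 0.13. Svop, a relative of a synaptic vesicle transporter, fell in 5F from 1.61 to 2.06 CPM to 0.907 to 1.13 CPM (interaction 1.05) and overlaps Usp30. The interaction was 0.53 for Fam57a, 0.52 for the co-chaperone Dnajc12, 0.50 for the fatty acid transporter family member Slc27a3 and 0.48 for Plac8. These 4 and Dab2 lost their call without at least 1 library, with adjusted p up to 0.0587, 0.0691, 0.0522, 0.128 and 0.0513, and their interactions were negative on the spike-in scale (-0.55 to -0.49).

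**Figure D4:**
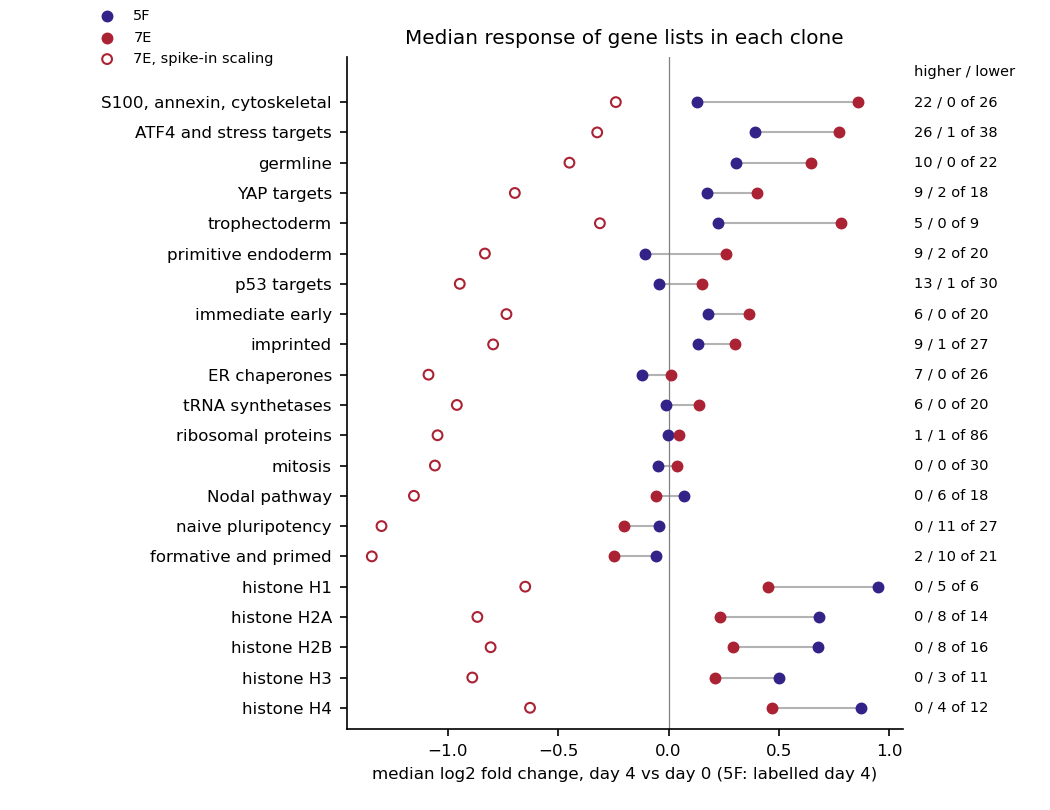
Median log2 fold change (horizontal axis) of each gene list in 5F (labelled day 4 against day 0), in 7E (day 4 against day 0) and in 7E with spike-in scaling (open circles), with the number of genes higher and lower in 7E in the interaction at the right. S100 and cytoskeletal genes move from 0.13 to 0.86 and histone H1 genes from 0.95 to 0.45, and the open circles of these lists lie below 0, at -0.24 and -0.65.

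The remaining lists were compared with the same background. Of 86 cytosolic ribosomal protein genes 1 was higher and 1 lower, with medians of 0.00 and 0.05, and the paired fit gave 23 and 4. Of 30 mitosis and kinetochore genes and of 17 snoRNA host transcripts 0 passed in either direction, but in the paired fit 10 mitosis genes were higher and 2 lower and 1 snoRNA host was higher. Of 44 DNA replication genes 0 were higher and 2 lower, or 3 and 12 in the paired fit. Cholesterol synthesis genes fell in both clones, 12 of 25 in 5F and 17 in 7E, and in the interaction 1 was higher and 3 were lower (12.0%, against 5.29% of all genes), or 2 and 8 in the paired fit. Of 365 numbered zinc finger genes 12 were higher (3.29%, and 5 to 18 with each library left out, lowest without 5F replicate 1 of day 0) and 20 lower (5.48%), or 24 and 43 in the paired fit.

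Of 25 RNA sensing and interferon genes 3 were higher (12.0%, against 6.65%) and 1 lower, or 3 and 5 in the paired fit. With spike-in scaling 0 of them were higher and 24 lower. Of 31 glycolysis and hypoxia genes 3 were higher and 3 lower (9.68% each), or 3 and 7 in the paired fit. Of 22 genes of decapping and 5′ to 3′ decay 0 were higher and 2 lower, or 1 and 5 in the paired fit, and of 25 genes of nonsense-mediated decay and ribosome rescue 0 and 1, or 0 and 8. Of 20 Wnt feedback and target genes 6 were higher (30.0%, against 6.65%) and 1 lower, with a median interaction of -0.01 and a range from -0.75 to 2.70. The count lower was 1 to 4 with each library left out and 4 in the paired fit, and spike-in scaling gave 1 higher and 12 lower, with a median of -0.97 in 7E.

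Libraries of the same clones and days under actinomycin D, which blocks transcription, were not used to choose these genes. They come from the same 2 clones and the same experiment, so they are no independent test of a difference between genotypes. Levels there also depend on decay. The interaction at 120 min was higher in 7E for 293 genes (1.75% of 16785) and lower for 159 (0.947%). At 240 min it was higher for 403 (2.49% of 16173) and lower for 152 (0.94%), and at 360 min higher for 349 (2.15% of 16204) and lower for 168 (1.04%). In the paired fit 1039 (6.19%) were higher and 1354 (8.07%) lower at 120 min, 1589 (9.83%) and 1530 (9.46%) at 240 min, and 1454 (8.97%) and 1725 (10.6%) at 360 min. Of the genes that were higher in 7E in the mock libraries, 96.0%, 95.7% and 92.5% of those tested had the same sign at 120, 240 and 360 min, and 254, 312 and 276 also passed there. Of the genes that were lower, 95.3%, 88.1% and 87.6% had the same sign and 115, 106 and 110 passed, whereas 1, 0 and 2 passed with the opposite sign. No share with the same sign over all genes tested is given for comparison. When the genes called in the mock libraries were looked up in the paired fits, 656, 737 and 672 of those higher and 478, 430 and 420 of those lower passed with the same sign, and 0, 2 and 9 and 2, 8 and 10 with the opposite sign. The counts at each time depend on single replicates: without replicate 3 at 120 min 6 genes were higher and 13 lower, without replicate 3 at 240 min 18 and 7, and without replicate 1 at 360 min 12 and 3.

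Of the genes that rose in 5F alone, 78.1% had the same sign at 240 min and 76.7% at 360 min, against 91.8% and 89.8% of the opposite genes that were lower in 7E, and the shares were 96.1% and 95.9% at 120 min. The S100 and cytoskeletal list kept median interactions of 0.70, 0.67 and 0.65 at 120, 240 and 360 min, and the YAP list 0.45, 0.56 and 0.40. The ATF4 list had 0.20, 0.22 and -0.02, with 8, 8 and 2 of 38 genes higher, or 19, 14 and 6 in the paired fits, which had 1, 5 and 6 lower. Among the histone genes, the median interaction of H1 was -2.98 at 120 min, -1.92 at 240 min and -1.12 at 360 min, against -0.40 in the mock libraries, and 5 of 6 were lower at each time. The other types also had medians further below 0 than in the mock libraries at 120 and 240 min, whereas at 360 min those of H2A, H3 and H4 lay nearer to 0 or above it. The medians at 120, 240 and 360 min were -2.12, -1.16 and -0.03 for H2A, -1.43, -0.81 and -0.41 for H2B, -1.66, -0.83 and -0.10 for H3, and -1.41, -0.84 and 0.14 for H4. In the mock libraries they were -0.47, -0.39, -0.23 and -0.38, and at 360 min 0 H2A, 0 H2B, 0 H3 and 1 H4 gene were lower, or 1, 4, 1 and 2 in the paired fit. The naive pluripotency list stayed at -0.26, -0.20 and -0.25. Other lists differed more from the mock libraries. In the paired fits 0 tRNA synthetases were higher at these times and 3, 6 and 8 of 20 were lower, against 10 and 1 in the mock libraries. Of 85 ribosomal protein genes 0, 1 and 1 were higher and 12, 11 and 14 lower, against 23 and 4 of 86. Of 44 DNA replication genes more were lower than in the mock libraries, 20, 23 and 22 against 12. The shares at these times were 45.5%, 52.3% and 50%, against 8.07%, 9.46% and 10.6% of all genes. The p53 list had medians of -0.02, 0.13 and 0.24, against 0.28 in the mock libraries.

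**Figure D5:**
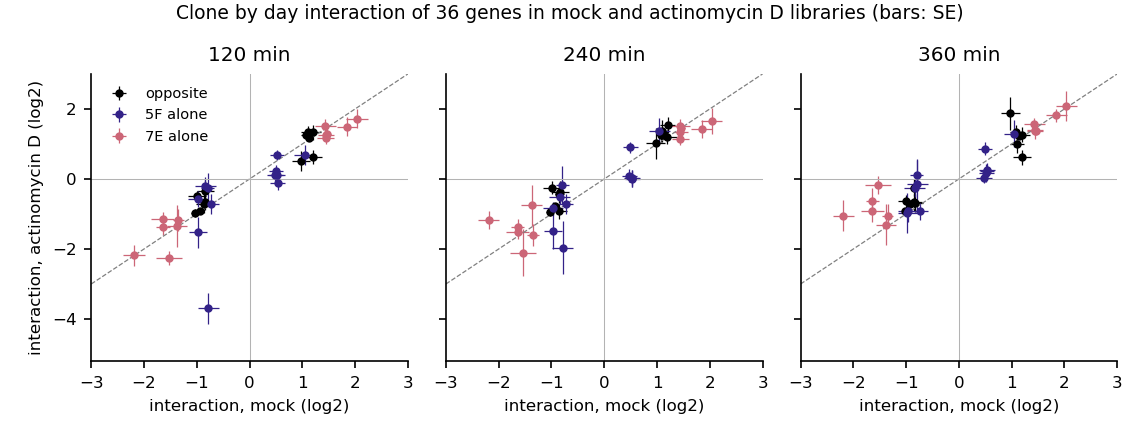
Interaction of 36 named genes (log2, with SE bars) in the mock libraries (horizontal axes) and in libraries at 120, 240 and 360 min of actinomycin D (vertical axes), relative to the median gene of each time, with 12 genes in each of the opposite, 5F alone and 7E alone classes. The dashed line marks equal values, and most genes keep their sign at each time. On the spike-in scale the median of all genes in the interaction lies at -0.64, -0.75 and -0.80 at the 3 times.

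CRAC maps the RNA fragments that UV crosslinks to a tagged protein, and the deposited relative binding values are ratios from pooled libraries, with no replicate error. They were available for 7231 of the 17209 genes tested. The median SKIV2L ratio was 0.267 over these, 0.534 for the histone genes, 0.326 for the genes that moved in the same direction and were higher in 7E, and 0.210 for the genes that fell in 7E alone. Genes with opposite responses had medians of 0.326 (16 genes, higher in 7E) and 0.195 (39 genes, lower in 7E). The XRN1 medians of the same groups were 0.338, 0.178, 0.297, 0.355, 0.355 and 0.375. The 3 ratios to SKIV2L, XRN1 and MTR4 sum to 1 for each gene, so a high value for one lowers the others, and these medians are a description with no test.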

How the data were processed

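Ribosomal RNA-depleted, unstranded single-end RNA-seq libraries of mESCs were analysed. The authors mapped reads with STAR to GRCm38 and deposited unnormalised counts of uniquely mapped reads per gene, with ERCC spike-ins as further rows. The deposited CRAC values are ratios of relative binding from pooled libraries. Genes were filtered with edgeR's filterByExpr, scaled with DESeq2 size factors and tested with edgeR's quasi-likelihood test (R 4.3.3, edgeR 4.0.16) in 1 model of the 12 mock libraries with a mean for each group, at an adjusted p of 0.05 (Benjamini-Hochberg over all genes tested). The scripts were tested on simulated data.

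A gene was placed in a class where the interaction passed, by which responses passed. Named genes were Skiv2l, Aven, Ttc37, Wdr61, Focad, Calr, Pdia4, Ifrd1, Atf4 and Hist1h1a, the 6 largest interactions in each direction of each class (mean count 100 or more, sign unchanged whichever library was left out), and up to 4 genes of each of 19 lists. Of these, 1 gene is not reported here, and counts include it. The members and lists were chosen with earlier results of these data known. Gene counts per library were 27401030 to 34114250. Across days same-numbered libraries did not deviate together, but within a day the 6 same-numbered pairs of 5F and 7E did (correlations of 0.25 to 0.543 in the mock libraries and 0.167 to 0.885 at the later times, against -0.52 to 0.1 and -0.84 to 0.517 for pairs with other numbers). The pairing comes from this check, since the labels name no shared batch. A fit with the replicate number within each day as a block (4 residual degrees of freedom) was therefore added after the data had been seen, also at the later times. Other alternatives were TMM and ERCC scaling, other filters, DESeq2 1.42.0, limma-voom (limma 3.58.1), a replicate block across days, a fit of 1 clone alone and each library left out.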

Additional observations from a re-analysis of the deposited data

Results flagged for a closer look

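The responses of the clones to 4OHT differed for 107 of the 114 named genes by the test of the difference itself (edgeR's interaction of clone and day), with 62 higher and 45 lower in 7E. Most of these genes were named because they passed this test, so their number is no result, and 2055 of all 17209 genes tested passed it. The values below are that difference on the log2 scale, 7E minus 5F, relative to the median gene. On the spike-in scale 33 of the 62 lay below 0.

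Among the named genes that responded in opposite directions, the difference was higher in 7E for Pth1r (1.20), Nxf7 (1.20), Podxl (1.14), Snai3 (1.10), Slc40a1 (1.08) and Ltb4r2 (0.98). In the same class it was lower in 7E for Sfrp1 (-1.03), Dact3 (-0.99), Jam2 (-0.93), Tbx3 (-0.85), Tns1 (-0.84) and Lefty2 (-0.81).

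Among the named genes that responded in 5F alone, the difference was higher in 7E for Svop (1.05), Fam57a (0.53), Dab2 (0.53), Dnajc12 (0.52), Slc27a3 (0.50), Plac8 (0.48) and P4hb (0.26). In the same class it was lower in 7E for Hist1h1t (-0.97), Megf11 (-0.97), Frem1 (-0.84), Sall3 (-0.79), Hist1h2af (-0.79), Tgfbi (-0.73), Lefty1 (-0.65), Hist1h2bc (-0.63), Hist1h4b (-0.58), Hist1h2ac (-0.51), Hist1h2bk (-0.48), Hist1h3i (-0.41), Hist1h1e (-0.40), Focad (-0.23) and Hist1h3b (-0.23).

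Among the named genes that responded in 7E alone, the difference was higher in 7E for AA986860 (2.04), Acta2 (1.85), Htra1 (1.46), Tinagl1 (1.45), Fam198b (1.44), Krt7 (1.43), Fosl2 (1.42), Tagln (1.42), Sgce (1.21), Rhox6 (1.16), Col4a1 (1.15), Col4a2 (1.05), Dusp1 (0.97), Serpinh1 (0.91), Perp (0.87), Dazl (0.70), Amotl1 (0.57), Gata2 (0.53), Nars (0.36), Sars (0.35) and Dnajb11 (0.28). In the same class it was lower in 7E for Sox1 (-2.19), Fgf1 (-1.64), Zic2 (-1.64), Ccdc107 (-1.53), Msi1 (-1.38), Zic5 (-1.35), Skiv2l (-1.31), Prdm14 (-0.85), Acvr1b (-0.34) and Acvr2b (-0.34).

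Among the named genes that responded in the same direction to unequal degrees, the difference was higher in 7E for Anxa1 (1.90), S100a6 (1.79), Atf3 (1.69), Ccn1 (1.50), Anxa2 (1.37), Vldlr (1.18), Taf7l (1.14), Stc2 (1.11), Ccn2 (1.07), Chac1 (1.07), Klf6 (1.04), Sfmbt2 (1.01), Peg10 (0.91), Foxa2 (0.88), Cdkn1a (0.84), Rhox9 (0.83), Amotl2 (0.78), Plk2 (0.76), Jun (0.72), Herpud1 (0.71), Mdm2 (0.58), Atf4 (0.53), Cdkn1c (0.52), Cdh2 (0.45), Tfap2c (0.30), Atf6 (0.27), Aars (0.27) and Cars (0.23). In the same class it was lower in 7E for Fgf15 (-1.35), Gbx2 (-0.83), Hist1h2ak (-0.68), Fgf4 (-0.66), Hist1h2bl (-0.54), Hist1h2ae (-0.53), Hist1h2bf (-0.48), Hist1h1c (-0.45), Hist1h4k (-0.45), Hist1h1d (-0.41), Hist1h4d (-0.38), Hist4h4 (-0.37) and Hist1h3d (-0.35).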

How the results depend on the processing

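Relative to the median gene, the numbers of genes called changed little with TMM scaling, other filters, DESeq2 and limma-voom, none of which moved a count over all genes tested by over 1.5 times. Spike-in scaling, which shifts the median gene of 7E, gave 54 genes higher and 14320 lower in the interaction, 1116 higher in 5F, 270 higher and 15130 lower in 7E, 716 opposite, 10620 in 7E alone and 2693 in the same direction, and 69 and 7587, 57 and 8930, and 41 and 8935 genes higher and lower at 120, 240 and 360 min. It reversed the interaction of Wdr61 (-0.85), Calr (-0.98), Pdia4 (-0.85), Ifrd1 (-0.90), Atf4 (-0.50), Ltb4r2 (-0.0499), Fam57a (-0.49), Dab2 (-0.50), Dnajc12 (-0.50), Slc27a3 (-0.53), Plac8 (-0.55), Nars (-0.67), Sars (-0.68), Aars (-0.76), Cars (-0.80), Herpud1 (-0.32), Dnajb11 (-0.75), Atf6 (-0.76), P4hb (-0.77), Perp (-0.16), Cdkn1a (-0.19), Plk2 (-0.27), Mdm2 (-0.46), Cdh2 (-0.57), Amotl2 (-0.24), Amotl1 (-0.46), Dusp1 (-0.0593), Jun (-0.31), Rhox9 (-0.19), Dazl (-0.33), Sfmbt2 (-0.0203), Peg10 (-0.12), Cdkn1c (-0.51), Serpinh1 (-0.12), Foxa2 (-0.15), Gata2 (-0.49) and Tfap2c (-0.72). An alternative added after seeing the data, spike-in scaling relative to its own median gene, returns values close to those without spike-ins by its construction.

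With each library left out, the interaction was higher for 869 to 1199 genes and lower for 644 to 1134, the response in 5F higher for 1532 to 2215 and lower for 1203 to 2007, and that in 7E higher for 3112 to 3600 and lower for 2752 to 3360. Opposite genes numbered 43 to 108, those in 5F alone 114 to 318, in 7E alone 926 to 1305 and in the same direction 352 to 554. The opposite class had 56, 46 and 43 genes without 5F replicate 1 or 3 of day 0 or replicate 3 labelled day 4. The class of 5F alone had 121, 116 and 114 without these, 130 without 7E replicate 2 of day 0 and 318 without 7E replicate 3 of day 4. Genes lower in 5F numbered 1230 and 1203 without 5F replicate 3 of day 0 or labelled day 4. Without 1 replicate number the counts at 120 min were 6 to 395 higher and 13 to 246 lower, at 240 min 18 to 517 and 7 to 263, and at 360 min 12 to 231 and 3 to 109. At 120 min they were 31 and 35 without replicate 2, and 246 were lower without replicate 1. At 240 min they were 80 and 27 without replicate 1, and 263 were lower without replicate 2. At 360 min they were 97 and 24 without replicate 2 and 231 and 109 without replicate 3. Day 0 of 5F had 2 libraries at 120 min, and a lone library was assumed to vary like the other groups. Of the named genes that passed, 17 lost the call without at least 1 library, and Aven, Wdr61 and Pdia4 gained it. The cause was not tested.

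With a replicate block within each day, which pairs the clones and was added after seeing the data, the mock interaction was higher for 2130 genes and lower for 2021. At 120, 240 and 360 min this pairing gave 1039, 1589 and 1454 genes higher and 1354, 1530 and 1725 lower. Among named genes it added Wdr61 (0.18), Pdia4 (0.18) and Ifrd1 (0.13) and changed no other call. With a replicate block across days the mock interaction was higher for 1070 genes and lower for 860. At 120, 240 and 360 min the block gave 545, 709 and 556 genes higher and 440, 428 and 375 lower. Among named genes it ended the calls of Focad and Hist1h3b. DESeq2 ended 9 named calls, all of histone genes, and limma-voom those of Plac8, Hist1h2ae and Hist1h4k.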

Other observations

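Genes of the 2-cell-like state, a rare transient state of mESC cultures marked by Zscan4, rose in both clones. Of 25 listed genes, 16 had enough counts to pass the filter and were tested. Of 16 tested, 14 rose in 5F labelled day 4 and 15 in 7E, with medians of 1.63 and 2.55. The list stayed above 0 in 7E on the spike-in scale (1.46). Some members passed the filter only through day 4 libraries, so these shares and medians are in part set by the filter. Tcstv1, for example, had 3 to 6 counts in 5F and 0 to 1 in 7E at day 0, and 16 to 26 in 5F labelled day 4. In the interaction 2 passed as higher in 7E, Zscan4a (1.19, adjusted p = 0.0429, edgeR) and Zscan4d (1.55, adjusted p = 0.00043), which are named after their values were seen. Mean Zscan4d was 1.23 and 3.47 CPM in 5F and 0.387 and 3.23 CPM in 7E at day 0 and day 4 (labelled day 4 in 5F). Zscan4 copies are near-identical, so reads of single copies are uncertain.

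Of the other 4 tested neuroectoderm markers, both Nes and Map2 were higher in 7E. Nes, an intermediate filament of neural progenitors, had an interaction of 0.85 (adjusted p = 1.67e-08, edgeR) and Map2, a neuronal microtubule protein, one of 0.60 (adjusted p = 0.00462), whereas Pax6 and Tubb3 had -0.02 and 0.01 and did not pass. These 4 were named after their values were seen. With spike-in scaling 0 of the 5 tested neuroectoderm markers were higher in 7E in the interaction and 5 were lower.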
